A study of Mus musculus with 16 samples.

Results

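A set of 10 genes of hepcidin and iron regulation was examined in mouse liver: the hepcidin genes Hamp and Hamp2, the signalling genes Bmp6, Id1 and Smad7, the transferrin receptor genes Tfrc and Tfr2, the iron exporter gene Slc40a1, and the ferritin chain genes Ftl1 and Fth1. They were chosen by name, and all 10 were found among the 78317 genes listed and were measured well enough to be tested. The livers came from C57BL/6J mice, an inbred laboratory strain, all labelled wild type. The mice arrived at 6 weeks of age and were fed for 10 weeks either a normal chow with 4.5% of its calories as fat (LabDiet 5053) or the high fat diet D12492 from Research Diets (60% as fat). There were 4 groups of 4 libraries: females and males on each diet. The diets came from different makers, so the fat content and the other ingredients of the diets, iron included, cannot be told apart. The labels put all 16 libraries in batch 1 and number the replicates, but do not name an animal for each, and the mice were housed in groups; the p-values measure the spread between these libraries.

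Hepcidin is a peptide hormone that hepatocytes secrete into the blood. It binds ferroportin, the product of Slc40a1 and the known exporter of iron from cells, and causes its removal, so that less iron enters the plasma from the gut and from macrophages. Hepcidin transcription is driven by bone morphogenetic protein (BMP) signalling: BMP6, made largely by liver sinusoidal endothelial cells, acts on hepatocyte receptors whose SMAD proteins bind the hepcidin promoter, and Id1 and Smad7 are further target genes of that signal. Another input comes from interleukin-6 through STAT3. Inside cells, iron regulatory proteins bind hairpins called iron-responsive elements. A hairpin in the 5′ untranslated region of a ferritin or ferroportin mRNA blocks its translation when iron is scarce, and hairpins in the 3′ untranslated region of Tfrc mRNA protect that mRNA from decay when iron is scarce.

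The mouse has 2 hepcidin genes beside each other, and their sequences are shown because the data below separate them. The 250 bases before each start site are given from RefSeq (build GRCm38.p6, minus strand), Hamp from chr7:30944030-30944279 and Hamp2 from chr7:30924182-30924431. Capitals mark GGCGCC, the letters of the BMP-responsive element, and TTCNNNGAA, those of a STAT site.
Hamp: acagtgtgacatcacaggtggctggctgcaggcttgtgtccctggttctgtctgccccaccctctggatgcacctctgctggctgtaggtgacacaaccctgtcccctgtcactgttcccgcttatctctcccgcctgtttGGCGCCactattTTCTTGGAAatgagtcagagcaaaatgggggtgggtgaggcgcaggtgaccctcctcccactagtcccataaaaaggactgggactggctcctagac
Hamp2: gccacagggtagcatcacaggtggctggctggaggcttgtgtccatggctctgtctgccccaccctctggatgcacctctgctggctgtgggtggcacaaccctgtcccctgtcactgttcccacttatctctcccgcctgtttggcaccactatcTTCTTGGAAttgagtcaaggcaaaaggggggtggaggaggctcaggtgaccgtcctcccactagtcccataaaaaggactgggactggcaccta
The aligned windows were identical at 227 of 253 positions (89.72%), with 20 substitutions and 6 gap positions. GGCGCC occurred once in Hamp, with its first base at -109, and was not found in the Hamp2 window. Counted from 1 at the 5′ end of the motif, the aligned Hamp2 stretch carries the substitution G4A (Hamp base first). TTCNNNGAA occurred in both windows, at -97 in Hamp and at -94 in Hamp2. Searched on both strands over 32851 promoter windows of the same length, GGCGCC was present in 9.586% and TTCNNNGAA in 7.02%. A match is a description of the letters and not evidence that a factor binds.

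The hairpin sites of the iron-responsive genes are shown because they set apart the members whose mRNA is known to be regulated after transcription. They are from GENCODE M21 transcripts (build GRCm38), with the loop in capitals.
Fth1, 5′ UTR, chr19:9982738-9982754, plus strand: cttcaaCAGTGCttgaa
Ftl1, 5′ UTR, chr7:45459785-45459801, minus strand: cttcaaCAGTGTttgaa
Slc40a1, 5′ UTR, chr1:45925471-45925487, minus strand: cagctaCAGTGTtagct
Tfrc, 3′ UTR, chr16:32631225-32631241, plus strand: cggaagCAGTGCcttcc
Tfrc, 3′ UTR, chr16:32631604-32631620, plus strand: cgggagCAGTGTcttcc
Tfrc, 3′ UTR, chr16:32631669-32631685, plus strand: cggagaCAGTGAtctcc
Tfrc, 3′ UTR, chr16:32631716-32631732, plus strand: cgggaaCAGTGTttccc
The pattern searched was an unpaired C, 5 stem bases, the loop CAGTGN with a last base other than G, and 5 bases that pair with the stem, G-U pairs included. Tfrc held 4 such sites and Fth1, Ftl1 and Slc40a1 held 1 each, while the other 6 genes held none. Of 21901 genes searched, 123 (0.562%) held a match in a UTR.

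Library totals ran from 22228115 to 41420589 expected counts, and 14781 genes were tested. Levels are given as CPM, counts scaled to a common library size, after TMM scaling, and a gene is called changed where edgeR's quasi-likelihood test gives an adjusted p under 0.05 over all tested genes. Libraries 2 and 3 of the males on the high fat diet were unusually alike: their counts differed by a chi-square of 4.00 per gene, against 20.7 or more for every other pair within a group. That is above sampling noise, so they were counted as 2 samples. It does not show that they came from 2 animals, because the labels do not name an animal for each library. Fits without both are given where the sign or call of a member changed, and where a list gene named by the rule lost its call. Libraries 1 and 4 of the same group stood apart in acute phase genes, with summed levels of 39336 and 20576 CPM against 7716 and 7937 CPM in libraries 2 and 3. Libraries 2 and 3 of the males on the normal diet also had raised sums, 15756 and 14056 CPM, and all other libraries lay between 7492 and 9036 CPM. The hepatocyte marker Alb stood at 37615 CPM or more in every library. The 5 hepatocyte markers summed to 102242 to 115858 CPM in females and 83893 to 92926 CPM in males on the normal diet, and to 79839 to 96491 and 55279 to 77116 CPM on the high fat diet. These sums did not overlap between the diets in either sex. Most of each sum was Alb, as no other of these markers exceeded 8951 CPM in any library. With the diet in males the others had log2 changes from -0.39 (Cps1) to 0.05 (Serpina1c), none of them called. Of the single markers, Cps1 was called lower with the diet in females (adjusted p = 0.0179) and Alb in males (log2 -0.50, adjusted p = 0.0303), and between the sexes Serpina1c was called lower in females on both diets and Alb higher in females on the high fat diet (0.57, adjusted p = 0.0104).

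On the normal diet, 4 of the 10 genes differed between the sexes (3 higher and 1 lower in females), where 15.7% of all tested genes were called. On the high fat diet 3 of 10 differed, all higher in females, against 20.4% of all genes. The diet moved 2 of 10 genes in males, both lower, against 11.4% of all genes. In females it moved 1 of 10, lower, against 11.5%, a share near that of the genome at large. No member was called for a difference between the sexes in the diet response (edgeR interaction test, where 0.677% of genes were called, 0.264% with the more positive change in females and 0.413% in males), and 1 of 10 had an unadjusted p under 0.05. DESeq2 called none either, again with 1 at an unadjusted p under 0.05. The median log2 change of the 10 genes was -0.14 for the diet in females and -0.11 in males, and 0.27 and 0.15 for females against males on the normal and the high fat diet. Over all tested genes the same 4 medians lay between -0.01 and 0.01.

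**Figure D1:**
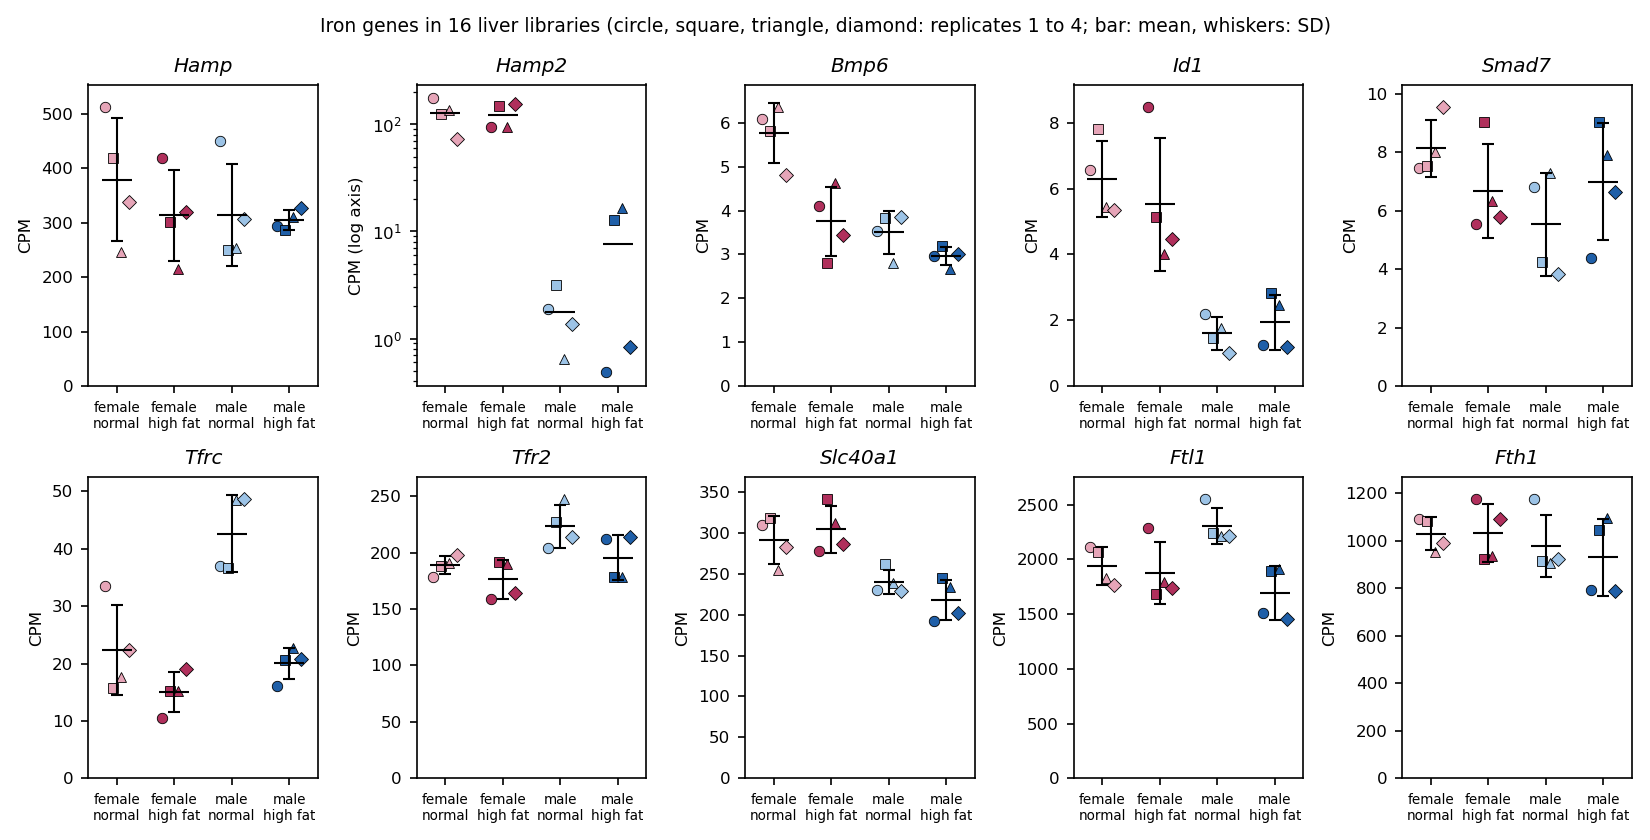
Level of each gene in CPM (y axis; log axis for Hamp2, drawn without whiskers) in the 4 groups (x axis), with 1 symbol per library, the mean as a bar and the SD as whiskers, n = 4 per group. Hamp2 separates the sexes, Tfrc is highest in males on the normal diet at 36.6 to 48.7 CPM, and Id1 is lower in every male library than in every female library.

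Hamp, the main hepcidin gene, did not differ detectably between any of the groups. Its CPM in replicates 1 to 4 was 512, 419, 247 and 337 in females on the normal diet and 418, 301, 215 and 319 in females on the high fat diet. In males it was 449, 249, 254 and 307 on the normal diet and 294, 286, 309.9 and 328 on the high fat diet. All groups overlapped, and the spread within a group was wide except in males on the high fat diet, whose mean was 304 ± 18.5 CPM (SD, n = 4). The log2 change with diet was -0.28 ± 0.23 (SE) in females (adjusted p = 0.464) and -0.05 ± 0.23 in males (adjusted p = 0.919). The approximate 95% interval (normal quantiles of the SE) in females ran from -0.72 to 0.17 and in males from -0.49 to 0.40, so changes of that size were not excluded by these libraries. Females against males gave 0.27 ± 0.23 on the normal diet (adjusted p = 0.454) and 0.04 ± 0.23 on the high fat diet (adjusted p = 0.914).

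Hamp2, the neighbouring copy, was far higher in females than in males. Its CPM was 175, 124, 135 and 72.4 in females on the normal diet and 94.2, 149, 93.7 and 154 in females on the high fat diet. In males it was 1.89, 3.14, 0.648 and 1.35 on the normal diet and 0.483, 12.7, 16.4 and 0.841 on the high fat diet. No female library overlapped a male library on either diet. On the normal diet Hamp2 was 70.3-fold higher in females (log2 6.14 ± 0.94, adjusted p = 0.00112). With the high fat diet it was 15.9-fold higher (log2 3.99 ± 0.82, adjusted p = 0.00549). That size rests on the alike libraries 2 and 3 of the high fat males: with libraries 1 and 4 alone in that group the log2 difference was 7.55 (adjusted p = 1.47e-05).

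Within females the diet gave a log2 change of -0.05 ± 0.72 (adjusted p = 0.977) and the groups overlapped. Within males on the high fat diet the libraries split, with 12.7 and 16.4 CPM in the unusually alike libraries 2 and 3 and under 1 CPM in libraries 1 and 4. The fitted change in males was 2.09 ± 0.86 and was not called (adjusted p = 0.135). With libraries 1 and 4 of that group alone it turned to -1.47 (adjusted p = 0.228), and without library 1 it was 2.48 and passed the threshold (adjusted p = 0.0442). Within that group the low libraries for Hamp2 were the ones with the high acute phase sums. On the normal diet the male library with the highest acute phase sum, library 2, had the highest Hamp2 of its group at 3.14 CPM. The part of the acute phase in the Hamp2 values was not tested.

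Because the transcripts of Hamp and Hamp2 (410 and 420 bases) are 92.38% identical over 420 aligned positions, with a longest identical run of 87 bases, some reads cannot be assigned to 1 gene with certainty, and the authors' estimated counts split them. Hamp2 took 25.5, 22.9, 35.5 and 17.7% of the pooled Hamp and Hamp2 counts in females on the normal diet and 18.4, 33.1, 30.3 and 32.5% in females on the high fat diet. In males the share was 0.42, 1.25, 0.255 and 0.44% on the normal diet and 0.164, 4.25, 5.03 and 0.256% on the high fat diet. The share was higher in all females than in all males. The difference was 24.8 percentage points on the normal diet and 26.2 on the high fat diet, each with an exact two-sided permutation p of 0.0286, the smallest that 4 against 4 can give (0.0571 after adjustment over 8 tests). The diet did not change the share detectably in females (exact permutation p = 0.514) or males (exact permutation p = 0.4).

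With the counts of both genes summed, hepcidin RNA on the normal diet was 506 ± 140.4 CPM in females and 316 ± 93.5 CPM in males (SD, n = 4), a log2 difference of 0.68 ± 0.21 that passed the threshold (adjusted p = 0.0325). The means on the high fat diet were 436 ± 88.7 and 312 ± 17.9 CPM, a difference of 0.51 ± 0.21 that did not pass (adjusted p = 0.0855). Hamp alone was not called in either comparison, while Hamp2 was called in both. The products of the 2 genes were not measured, so the summed RNA is not a measure of the hormone or its action. The call on the normal diet was lost without library 1 or 2 of the females or library 2, 3 or 4 of the males (adjusted p 0.0797 to 0.125, log2 0.50 to 0.67). The difference on the high fat diet passed without library 3 of the females (0.64, adjusted p = 0.0414). Summed hepcidin gave a log2 change with diet of -0.20 ± 0.21 in females (adjusted p = 0.582) and -0.03 ± 0.21 in males (adjusted p = 0.955).

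**Figure D2:**
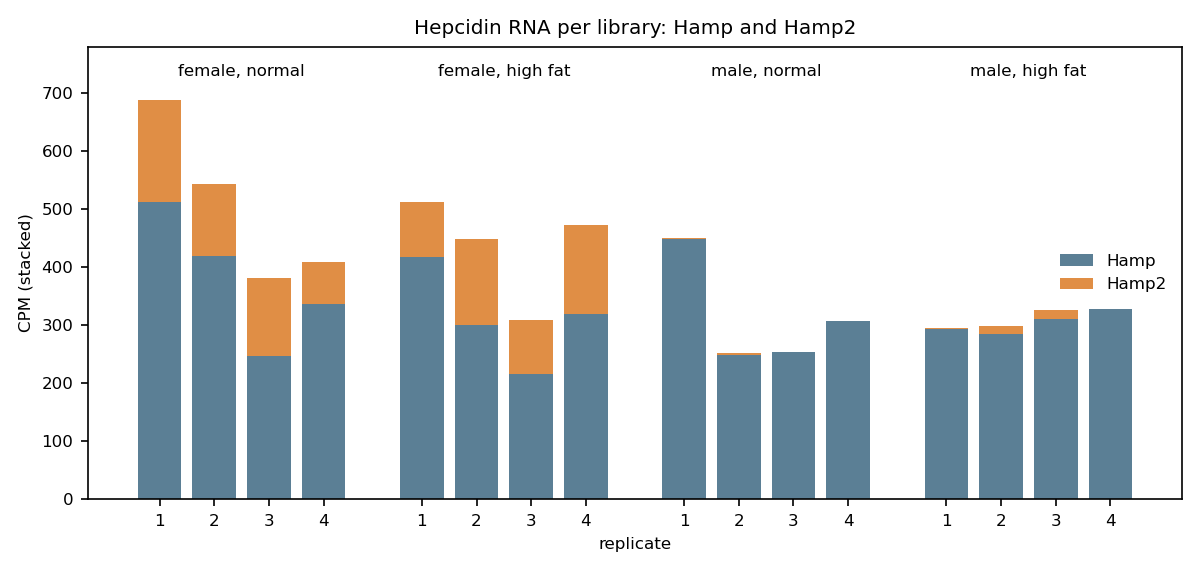
Stacked CPM of Hamp (blue) and Hamp2 (orange) in each of the 16 libraries (x axis, replicates 1 to 4 of each group). The Hamp2 part reaches 72.4 CPM or more in every female library and at most 16.4 CPM in the male libraries.

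Bmp6, the endothelial ligand that raises hepcidin, was highest in females on the normal diet and fell with the high fat diet in females. Its CPM was 6.08, 5.82, 6.37 and 4.81 in females on the normal diet against 4.11, 2.81, 4.64 and 3.45 on the high fat diet. These groups did not overlap, as was the case for 18.3% of all genes. The log2 change was -0.62 ± 0.17 (adjusted p = 0.0233). In males the CPM was 3.54, 3.82, 2.81 and 3.84 on the normal diet and 2.97, 3.19, 2.68 and 3.01 on the high fat diet, a change of -0.25 ± 0.17 that was not called (adjusted p = 0.378). The difference between these responses was -0.37 ± 0.24 and was not called either (adjusted p = 0.549).

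On the normal diet Bmp6 was 1.64-fold higher in females than in males (log2 0.71 ± 0.17, adjusted p = 0.00812), with no overlap. The sexes overlapped on the high fat diet (0.34 ± 0.17, adjusted p = 0.165). Bmp6 was the lowest of the 10 genes per length, at 1.06 to 1.96 TPM by group mean (a unit that scales counts by transcript length as well as by library), and its female diet call was fragile. It was lost in 5 of 8 fits that left out a library (replicates 1, 2 and 3 on the normal diet and 2 and 4 on the high fat diet; adjusted p 0.0608 to 0.0699), without the filter on low counts (0.0553), with the 2 female groups alone (0.0538), and on log2(TPM + 1), where the change was -0.25 (adjusted p = 0.104). In whole liver, fewer cells of a type and less RNA per cell cannot be told apart; the 6 endothelial markers summed to 167 to 197 CPM in females on the normal diet and 162 to 217 CPM on the high fat diet, and none of them was called for that comparison. In males on the normal diet they summed to 145 to 155 CPM, below all females on that diet, and 1 of the 6, Clec4g, was called higher in females there (0.70 ± 0.10, adjusted p = 0.000118). The part of these markers in the Bmp6 difference between the sexes was not tested. Exons of Bmp6 overlap those of Txndc5 on the other strand, and strandedness is not given in the sources used here. Txndc5 stood at 90.8 to 153 CPM. Its change with diet was -0.18 ± 0.12 in females (adjusted p = 0.324) and -0.43 ± 0.12 in males, where it was called (adjusted p = 0.0241). Between the sexes Txndc5 was not called on either diet. Its part in the Bmp6 counts was not tested.

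Id1, a transcription factor gene that BMP signalling switches on, differed by sex and not detectably by diet. Its CPM was 6.56, 7.82, 5.45 and 5.34 in females on the normal diet and 8.49, 5.13, 4.00 and 4.47 on the high fat diet. In males it was 2.18, 1.46, 1.77 and 1.00 on the normal diet and 1.26, 2.82, 2.47 and 1.20 on the high fat diet. Every female library lay above every male library. Females were 3.97-fold higher on the normal diet (log2 1.99 ± 0.31, adjusted p = 0.000342) and 2.83-fold higher on the high fat diet (1.50 ± 0.30, adjusted p = 0.00252). With libraries 1 and 4 alone among the high fat males the latter difference was 2.17 (adjusted p = 0.00053). The diet changes were -0.18 ± 0.28 in females (adjusted p = 0.717) and 0.31 ± 0.32 in males (adjusted p = 0.574).

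Smad7, whose product is a feedback inhibitor of the same pathway, passed the threshold in no comparison. It ran from 7.45 to 9.55 CPM in females on the normal diet, 5.56 to 9.03 CPM on the high fat diet, 3.82 to 7.30 CPM in males on the normal diet and 4.38 to 9.03 CPM on the high fat diet. The female and male libraries on the normal diet did not overlap, but the difference of 0.57 ± 0.23 was not called (adjusted p = 0.107). Of the members, 7 of 10 showed no overlap between the sexes on the normal diet, where 22% of all genes did so. On the high fat diet 3 of 10 did, against 22.7%.

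**Figure D3:**
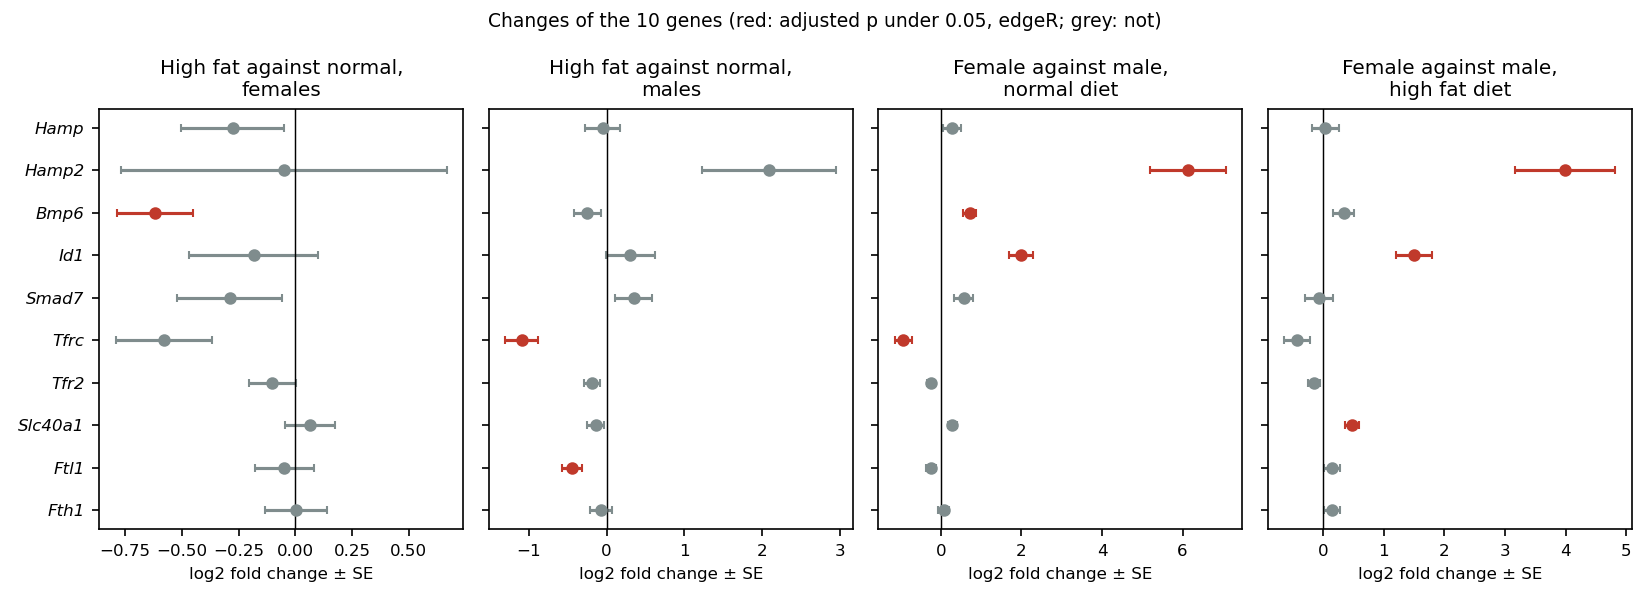
Log2 fold change with its SE (x axis, with a different range in each panel) of the 10 genes (y axis) in the 4 comparisons of 2 groups; red marks an adjusted p under 0.05. Hamp2 has the largest differences between the sexes, at 6.14 and 3.99, and Tfrc is lower in the comparisons of diet in males (-1.09) and of sex on the normal diet (-0.93).

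Tfrc, the receptor that takes up transferrin-bound iron, fell with the high fat diet in males. Its CPM was 36.9, 36.6, 48.4 and 48.7 in males on the normal diet and 16.2, 20.6, 22.7 and 20.8 on the high fat diet. The groups did not overlap, and the level was 2.13-fold lower (log2 -1.09 ± 0.21, adjusted p = 0.0035). The call held in all 8 fits that left out a library of either group, with values from -1.16 to -1.01, and with libraries 1 and 4 alone in the high fat group (-1.21, adjusted p = 0.0178). In the comparison of diet in males, 2 of 10 members (Tfrc and Ftl1) did not overlap, against 18.5% of all genes.

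In females Tfrc was 33.4, 15.8, 17.7 and 22.4 CPM on the normal diet and 10.5, 15.2, 15.2 and 19.0 CPM on the high fat diet. These groups overlapped, and the change of -0.58 ± 0.21 was not called (adjusted p = 0.0876). The responses of the sexes were not shown to differ (0.51 ± 0.30, adjusted p = 0.502). Males on the normal diet stood above females without overlap, by 1.91-fold (log2 -0.93 ± 0.21 for females against males, adjusted p = 0.0069). On the high fat diet the sexes overlapped (-0.42 ± 0.21, adjusted p = 0.168), and the order of the 4 groups by mean CPM was males on the normal diet at 42.7, females on the normal diet at 22.3, males on the high fat diet at 20.0 and females on the high fat diet at 15.0. The last 3 of these overlapped each other. The red blood cell and erythroid markers, whose precursors carry much Tfrc, summed to 390.4 to 556 CPM in males on the normal diet, 339 to 407 CPM in males on the high fat diet, 232 to 499 CPM in females on the normal diet and 222 to 342 CPM in females on the high fat diet. None of the 5 tested markers was called for diet in either sex. Between the sexes only Alas2 was called, lower in females on the normal diet (log2 -3.17, adjusted p = 5.56e-09) and on the high fat diet (-2.74, adjusted p = 2.85e-08). It ran from 7.77 to 107 CPM over all libraries, while the globin markers were not called between the sexes on either diet. Slc4a1 lay between 0 and 0.334 CPM. The part of these markers in the Tfrc levels was not tested. The hepatocyte marker sums given above, which are mostly Alb, were also lower with the diet in males, and their part was not tested either.

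Tfr2, the hepatocyte receptor that senses transferrin upstream of hepcidin, was steadier than Tfrc and was never called. It ran from 178 to 198 CPM in females on the normal diet, 158 to 191 CPM in females on the high fat diet, 204 to 247 CPM in males on the normal diet and 178 to 213 CPM in males on the high fat diet. Females on the normal diet lay below males without overlap, by -0.24 ± 0.10 (adjusted p = 0.122). Per length Tfr2 was far the more abundant receptor, at 79.6 to 93.5 TPM by group mean against 4.39 to 10.4 TPM for Tfrc.

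Slc40a1, which encodes ferroportin, was higher in females than in males on the high fat diet. Its CPM there was 278, 341, 312 and 286 in females and 193, 244, 233 and 201 in males. The groups did not overlap, and the difference was 1.4-fold (log2 0.48 ± 0.11, adjusted p = 0.00606). On the normal diet it was 310.0, 318, 254 and 283 in females and 230.4, 261, 239 and 229 in males. There the groups overlapped, and the difference of 0.28 ± 0.11 was not called by edgeR (adjusted p = 0.0935) but was by DESeq2 (adjusted p = 0.046). The change with diet was 0.06 ± 0.11 in females (adjusted p = 0.751) and -0.14 ± 0.11 in males (adjusted p = 0.454). On log2(TPM + 1) the female change was 0.31 and was called (adjusted p = 0.0379); on that scale the median of all genes itself moved by 0.15 for the diet in females.

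Ferroportin is made by Kupffer cells, the liver's macrophages, as well as by hepatocytes. The 5 Kupffer cell markers summed to 354 to 519 CPM in females and 166 to 362 CPM in males when both were fed the high fat diet, and 4 of the 5 were called higher in females. On the normal diet they summed to 214 to 313 CPM in females and 198 to 308 CPM in males, with none called. On the high fat diet the Kupffer sums of libraries 1 to 4 were 419.5, 412, 354 and 519 CPM in females and 362, 192, 166 and 260 CPM in males. Among those males, libraries 1 and 4 had the higher Kupffer sums and the lower Slc40a1. They were also the libraries with the highest acute phase sums. The part of the Kupffer markers and of the acute phase split in the Slc40a1 difference was not tested.

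Ftl1, the ferritin light chain gene, fell with the high fat diet in males, while the heavy chain gene Fth1 was not called in any comparison. Ftl1 CPM was 2552, 2244, 2214 and 2216 in males on the normal diet and 1514, 1896, 1912 and 1454 on the high fat diet. The groups did not overlap, and the level was 1.36-fold lower (log2 -0.45 ± 0.13, adjusted p = 0.0338). The call was lost in 6 of 8 fits that left out a library, those without any 1 of the normal diet group and those without library 1 or 4 of the high fat group (adjusted p 0.0567 to 0.107). It was also lost without the filter on low counts (0.059) and with the 2 male groups alone (0.0645). With libraries 1 and 4 alone in the high fat group the change was -0.64 (adjusted p = 0.0116). Those libraries, the lowest for Ftl1, were also the lowest in hepatocyte marker sum, which is mostly Alb, at 55279 and 57052 CPM. The part of that in the Ftl1 change was not tested.

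In females Ftl1 was 2110.1, 2064, 1829 and 1764 CPM on the normal diet and 2289.8, 1682, 1794 and 1739 CPM on the high fat diet. These groups overlapped (-0.05 ± 0.13, adjusted p = 0.842). The responses of the sexes differed by 0.40 ± 0.18, with an unadjusted p of 0.0453 and an adjusted p of 0.373 in edgeR. Reads of Ftl1-like pseudogenes were few, and the male change with their counts added was -0.45 (adjusted p = 0.034).

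Fth1 CPM was 1091, 1085, 953 and 991 in females on the normal diet and 1176, 923, 937 and 1093 on the high fat diet. In males it was 1175, 914, 905 and 922 on the normal diet and 793, 1046, 1095 and 789 on the high fat diet. All groups overlapped, and no log2 difference exceeded 0.15 in size. The male high fat libraries fell into a low pair (1 and 4) and a high pair (2 and 3), the same split as in the acute phase genes; the part of that split in the Fth1 values was not tested.

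The light and heavy chains fill the same protein shell, so their ratio was taken within each library on the TPM scale, which allows for length. The ratio of Ftl1 to Fth1 was 2.04, 2.31, 2.30 and 2.25 in males on the normal diet and 1.79, 1.70, 1.64 and 1.73 on the high fat diet. In females it was 1.81, 1.78, 1.80 and 1.67 on the normal diet and 1.83, 1.71, 1.79 and 1.50 on the high fat diet. Males on the normal diet lay above every other library. The difference in mean log2 ratio was -0.37 for high fat against normal diet in males, and -0.33 for females against males on the normal diet. Each had an exact two-sided permutation p of 0.0286, the smallest possible with 4 against 4, and 0.0571 after adjustment over the 8 tests. The ratio did not differ detectably with diet in females (exact permutation p = 0.657) or between the sexes on the high fat diet (exact permutation p = 0.943).

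**Figure D4:**
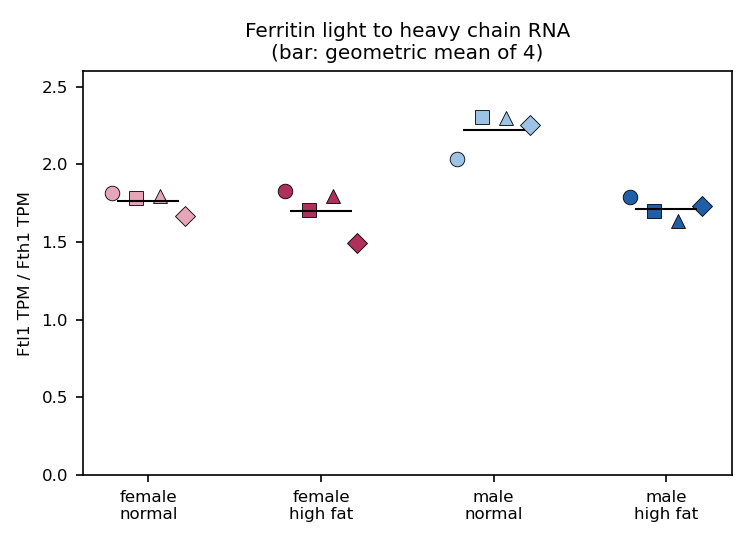
Ratio of Ftl1 to Fth1 TPM (y axis) in each library, by group (x axis), with the geometric mean of 4 libraries as a bar. The males on the normal diet lie at 2.04 to 2.31, and all other libraries at 1.50 to 1.83.

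Ordered per length, Hamp, Ftl1 and Fth1 were the most abundant of the 10 genes in every group, with Hamp at 3177 to 3849 TPM and Ftl1 at 2988 to 3870.4 TPM by group mean. Hamp and Ftl1 exchanged places between groups, with Hamp first in high fat males and normal diet females. In females on the normal diet Hamp stood at 3849 ± 942 and Ftl1 at 3272 ± 181 TPM (SD, n = 4), less than 1 SD of Hamp apart. Fth1 followed at 1746 to 2188 TPM. Hamp2 came next in females (1202 and 1315 TPM) but lay below Slc40a1 and Tfr2 in males by group mean (16.9 and 74.5 TPM). In the high fat males that order did not hold in every library. Hamp2 ran there from 4.65 to 164 TPM, Slc40a1 from 73.65 to 92.9 TPM and Tfr2 from 77.3 to 96.9 TPM. Id1, Tfrc, Smad7 and Bmp6 were the lowest in each group, none above 11.5 TPM.

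The wider iron pathway was described with 5 lists of 66 genes, of which 63 were tested. The diet in females called 14 of them, 6 higher and 8 lower, where 5.74% of all genes were higher and 5.76% lower. On log2(TPM + 1) the same count was 10 higher and 2 lower, and over all genes the split moved from 848 higher and 852 lower to 2644 and 282. In males the diet called 7, 6 higher and 1 lower, against 6.03% and 5.36% of all genes. The diet counts of single lists given below are to be read beside these shares for each sex, and were not tested as sets. The median log2 change over the 63 genes was -0.06 in females and 0.00 in males, beside 0.00 and 0.01 over all genes.

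Many of these calls were near the threshold. Of 42 calls of list genes named by the rule, 11 held under every alternative: Hjv and Id2 for the diet in males, Id2, Il6ra, Smad9 and Steap3 for the diet in females, Fbxl5 and Slc11a2 between the sexes on the normal diet, and Slc11a2, Slc39a8 and Smad9 between the sexes on the high fat diet. A further 4 held whichever single library was left out: Steap3 and Slc48a1 for the diet in males, and Ncoa4 and Steap4 between the sexes on the high fat diet. The other 27 were lost without some single library, and none of the 42 turned direction. With libraries 1 and 4 alone among the high fat males, edgeR no longer called Steap3 (log2 0.42, adjusted p = 0.093), Id3 (0.78, 0.123) or Fbxl5 (0.26, 0.208) for the diet in males. Also lost there were Ncoa4 (-0.32, 0.0876), Hjv (-0.29, 0.185) and Iscu (-0.18, 0.353) between the sexes on the high fat diet. Uros for the diet in females (0.45, 0.0566) and the Fbxl5 interaction given below were lost too.

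Of 21 tested genes of BMP signalling and hepcidin control, 3 rose and 2 fell with the diet in females, and 3 rose in males. Hjv, the gene of the BMP co-receptor hemojuvelin, rose in both sexes. It went from 36.2 ± 2.48 to 48.8 ± 8.09 CPM in females (SD, n = 4; log2 0.43 ± 0.12, adjusted p = 0.0304) and from 32.4 ± 4.57 to 65.1 ± 6.67 CPM in males (1.01 ± 0.12, adjusted p = 7.72e-05). Id2, a relative of Id1 that BMP signalling also induces, rose by 0.83 ± 0.17 in females (adjusted p = 0.00557) and by 0.96 ± 0.18 in males (adjusted p = 0.00187). Id3 rose by 0.78 ± 0.23 in males (adjusted p = 0.0343) and by 0.81 ± 0.23 in females (adjusted p = 0.0308), where it falls outside the naming rule and was added after its values were seen. The Hjv call in females was lost without library 1 of the high fat group or library 1, 3 or 4 of the normal diet group (adjusted p up to 0.0874), and that of Id3 in males without library 2, 3 or 4 of the high fat group or library 2 or 4 of the normal diet group (adjusted p up to 0.0986). These changes stand beside those of Id1 itself, which was not called for diet in either sex.

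In females Il6ra, the interleukin-6 receptor gene, fell from 107 ± 7.21 to 42.5 ± 9.57 CPM (log2 -1.33 ± 0.19, adjusted p = 0.000266). Smad9 fell from 18.0 ± 5.61 to 4.46 ± 1.99 CPM (-2.0 ± 0.33, adjusted p = 0.00166). Hfe and Tmprss6, an activator and a brake of hepcidin expression, passed the threshold in no comparison. Bmp2, the other endothelial ligand, was on the normal diet the sole gene of this list called between the sexes and was higher in females (0.48 ± 0.14, adjusted p = 0.0274). Smad6 was higher in females on the high fat diet (0.73 ± 0.21, adjusted p = 0.0195), while Hjv (-0.42 ± 0.12, adjusted p = 0.0234), Smad9 (-1.48 ± 0.33, adjusted p = 0.00629) and Stat3 (-0.69 ± 0.20, adjusted p = 0.023) were lower. The Stat3 call was lost without library 1 or 3 of those females or library 1 or 4 of the males on that diet (adjusted p up to 0.0872). Without library 1 of those males the Stat3 difference was -0.49. On log2(TPM + 1) Stat3 was not called either (adjusted p = 0.149). Those 2 male libraries had the highest acute phase sums, whose part in the Stat3 difference was not tested.

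Of 12 tested genes of iron transport and storage, 2 rose and 1 fell with the diet in females, and 2 rose in males. Steap3, a ferrireductase gene of the transferrin cycle, rose by 0.54 ± 0.13 in females (adjusted p = 0.013) and by 0.64 ± 0.13 in males (adjusted p = 0.00461). Slc39a8, a metal importer gene, rose in females (0.37 ± 0.11, adjusted p = 0.0407), and Ncoa4, whose product carries ferritin to degradation, fell there (-0.44 ± 0.11, adjusted p = 0.0141). Steap4 rose in males by 1.80 ± 0.48 (adjusted p = 0.0286), from 163 ± 75.3 to 565 ± 431 CPM, a group whose libraries ran from 219 to 1113 CPM. The Steap4 call was lost without library 1 or 4 of either male group (adjusted p up to 0.0776). Slc11a2, the gene of the importer DMT1, separated the sexes. It stood at 10.9 ± 0.778 CPM in females against 24.4 ± 4.52 CPM in males on the normal diet (log2 -1.17 ± 0.18, adjusted p = 0.000414), and at 11.6 ± 2.28 against 29.1 ± 7.91 CPM on the high fat diet (-1.33 ± 0.18, adjusted p = 9.78e-05).

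Fbxl5, whose product removes iron regulatory protein 2 when iron is plentiful, was the 1 list gene called for a difference between the sexes in the diet response. It went from 54.9 ± 5.05 to 43.7 ± 3.81 CPM in females (log2 -0.33 ± 0.09, adjusted p = 0.0318) and from 31.3 ± 2.15 to 39.4 ± 2.56 CPM in males (0.33 ± 0.09, adjusted p = 0.0299). The difference between these changes was -0.66 ± 0.13 (adjusted p = 0.0251). It was higher in females on the normal diet by 0.81 ± 0.09 (adjusted p = 1.96e-05). The interaction call was lost in 7 of 16 fits that left out a library (adjusted p up to 0.0714), with libraries 1 and 4 alone among males on the high fat diet (-0.59, adjusted p = 0.0956) and on log2(TPM + 1) (-0.45, adjusted p = 0.0952). Aco1 and Ireb2, which encode the iron regulatory proteins themselves, passed in no comparison.

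Of 18 heme genes, 1 rose and 2 fell with the diet in females and 1 fell in males. Alas1, the rate-limiting enzyme of heme synthesis in liver, fell in females from 604 ± 77.9 to 344 ± 144 CPM (-0.81 ± 0.23, adjusted p = 0.0318), and that call was lost without library 4 of the high fat group or library 1, 3 or 4 of the normal diet group (adjusted p up to 0.0862). Slc48a1, a heme transporter gene, fell in males (-0.39 ± 0.09, adjusted p = 0.0103). Hmox1, the gene of the heme-degrading enzyme, was lower in females than in males on the normal diet (-1.02 ± 0.30, adjusted p = 0.0339). Of 9 genes of mitochondrial iron and iron-sulfur clusters, 2 fell in females, Isca1 (-0.36 ± 0.09, adjusted p = 0.0142) and Slc25a37, a mitochondrial iron importer gene (-0.59 ± 0.17, adjusted p = 0.0348), and none was called in males by edgeR. Neither fall was called on log2(TPM + 1).

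Between the sexes, 8 list genes were called on the normal diet (5 higher and 3 lower in females), against 7.03% higher and 8.68% lower over all genes. On the high fat diet 17 were called, 3 higher and 14 lower, against 8.84% and 11.6%. On log2(TPM + 1) that split was 10 higher and 4 lower, and over all genes it moved from 1306 higher and 1716 lower to 2957 and 753. Hp, the haptoglobin gene, was lower in females on the high fat diet (-1.38 ± 0.41, adjusted p = 0.0266), and the males there ranged from 2446 to 10593 CPM and included the libraries with the highest acute phase sums, whose part in this difference was not tested. Without library 1 of those males the difference was -0.82 and was not called (adjusted p = 0.101).

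**Figure D5:**
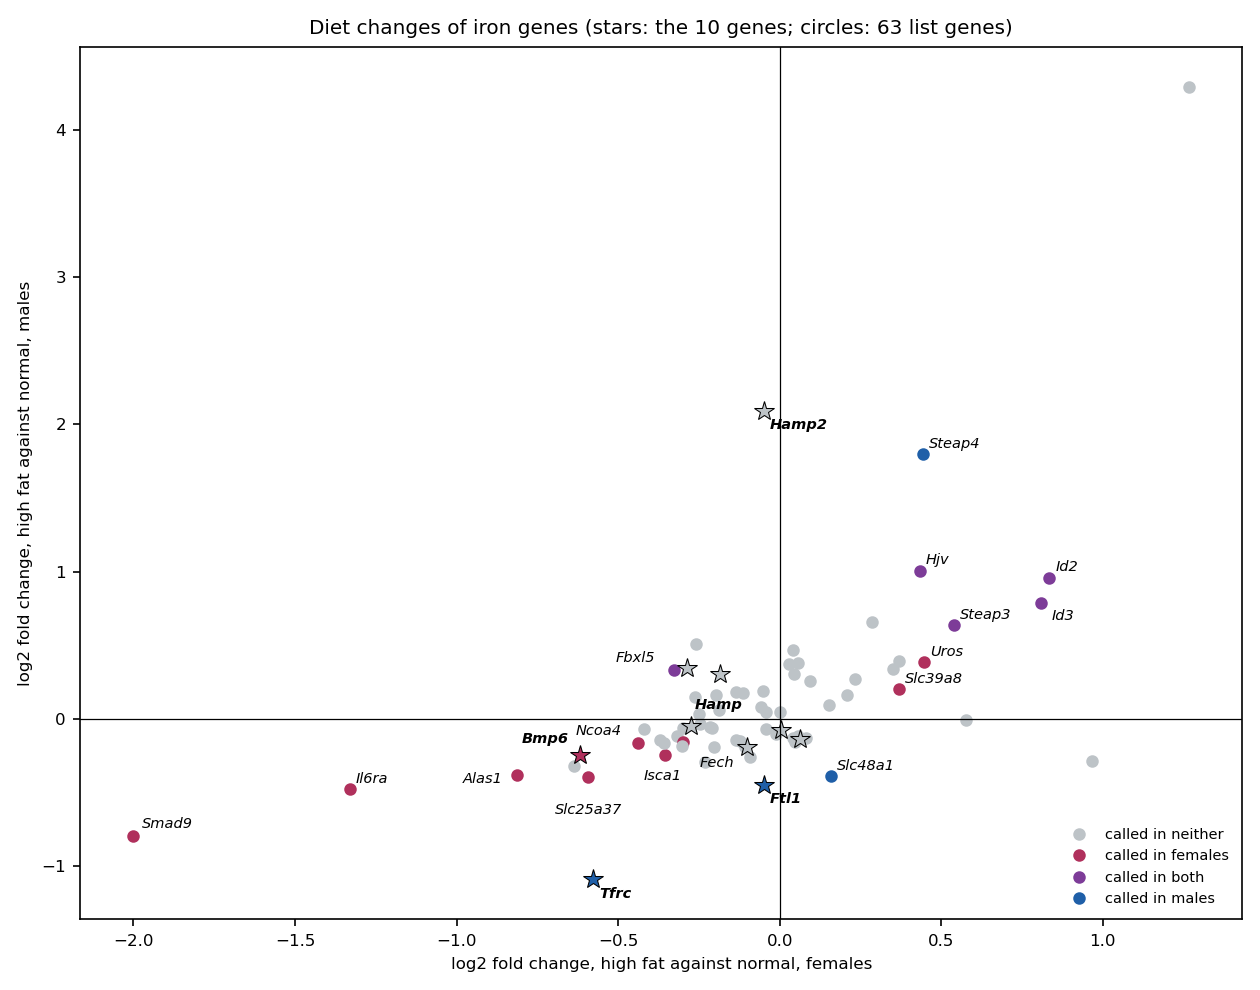
Log2 fold change with the high fat diet in females (x axis) against males (y axis) for the 10 genes (stars) and 63 list genes (circles), coloured by whether the change was called. Hjv, Id2, Id3 and Steap3 lie at the upper right, and Tfrc at -0.58 and -1.09. The grey circle at the top is Lcn2 (4.29 in males, adjusted p = 0.0549), named after its values were seen. In males Lcn2 ran from 1.77 to 37.9 CPM on the normal diet and from 19.2 to 1262 CPM on the high fat diet, so those groups overlapped.

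The genes whose levels ran most like those of Hamp, Id1 and Tfrc were listed by Pearson correlation of log2 CPM over the 16 libraries, as a description. For Hamp these were Ndufb3, Mrpl54, Mrpl52, Polr2k and Usmg5, with r from 0.85 to 0.87, and from 0.86 to 0.88 after group means were subtracted. For Id1 they were Fxyd1, Apoc3, Acot13, Rab1b and Timd2 (r 0.94 to 0.97, and 0.76 to 0.91 without group means). For Tfrc they were Pfkfb2, Amd1, Apex2, Adarb1 and Zbtb7a (0.90 to 0.94, and 0.68 to 0.81).

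Several of the genes nearest to Hamp have short transcripts, as Hamp does. An index of each library was therefore taken after the data were seen. The log2 CPM of each gene was first centred on its mean over the 16 libraries. The index was the median of these centred values over 109 tested genes with transcripts under 600 bases, minus that over 6762 genes over 3000 bases. It was highest in library 1 of the females on the high fat diet (0.62), library 1 of the females on the normal diet (0.61) and library 1 of the males on the normal diet (0.38), the libraries that also held the highest Hamp and Ftl1 of their groups. The index also differed between groups. It ran from 0.02 to 0.61 in females and -0.33 to 0.38 in males on the normal diet. With the high fat diet it ran from -0.06 to 0.62 in females and -0.41 to -0.16 in males, without overlap. Within groups over the 16 libraries, Hamp followed the index with a Pearson r of 0.80 (permutation p = 0.0067, adjusted over 10 genes 0.0219) and a Spearman rho of 0.63 (permutation p = 0.0401, adjusted 0.134). Without the 2 libraries farthest from the median, r was 0.65. Ftl1 gave r = 0.75 (permutation p = 0.00368, adjusted 0.0219) and rho = 0.55 (permutation p = 0.0113, adjusted 0.0566), with r = 0.57 without those 2. Id1 gave r = 0.63 (permutation p = 0.00876, adjusted 0.0219) and rho = 0.64 (permutation p = 0.00455, adjusted 0.0455), and was the only one of the 10 genes whose rho passed, with r = 0.41 without those 2. Fth1 gave r = 0.63 (permutation p = 0.00644, adjusted 0.0219) and rho = 0.43 (permutation p = 0.0627, adjusted 0.157), with r = 0.40 without those 2. For r, Hamp2, Tfrc, Tfr2, Slc40a1, Bmp6 and Smad7 did not pass. The part of this index in the comparisons between groups, such as the difference of Id1 between the sexes, was not tested.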

How the data were processed

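RNA was measured by polyA RNA sequencing in 16 liver libraries. Per the submitters' processing notes, the reads were processed with STAR and RSEM on build GRCm39; the annotation release, strandedness and versions are not given in the sources used here. The authors deposited RSEM expected counts per gene, and TPM values per gene in the same layout. The members and lists were chosen with earlier results of these data known.

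Expected counts were rounded, filtered with filterByExpr and scaled by TMM, and 14781 genes were tested over all 16 libraries with edgeR 4.0.16 (quasi-likelihood, robust, R 4.3.3), Benjamini-Hochberg over all of them and a threshold of 0.05. SE is the log2 fold change divided by the root of F. Shares and ratios were tested by exact permutation. The fits were tested on simulated counts. Alternatives used DESeq2 1.42.0, limma 3.58.1 on log2(TPM + 1) and log2(TPM + 0.1), no filter, other scaling, fewer libraries, a replicate block and summed copies; the short-transcript index and the fit that kept only libraries 1 and 4 of the high fat males were chosen after the data were seen. List genes were named if called, at most the 4 smallest p per list and comparison. Pattern neighbours are the 5 genes with the highest r. Those of Bmp6 are not reported here. The table lists Hjv under the symbol Hfe2.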

Additional observations from a re-analysis of the deposited data

Results flagged for a closer look

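Library 1 of the males on the normal diet stood far above the other 3 of its group for both ferritin genes, at 2552 CPM for Ftl1 (the others between 2214 and 2244 CPM) and 1175 CPM for Fth1 (the others between 905 and 922 CPM). The gap to the next library was 0.911 of the group's range for Ftl1 and 0.937 for Fth1, above Dixon's 95% critical value for 4 samples. In 48 groups of values checked, 2 passed it, where chance passes about 1 in 20. The short-transcript index of that library was 0.38, against -0.33 to -0.13 in the other 3; its part in these values was not tested. Without that library, Ftl1 in males gave a diet change of -0.40 that was not called (adjusted p = 0.0928).

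The diet changes of Fbxl5 differed between the sexes by the test of that difference in edgeR, with -0.66 ± 0.13 (adjusted p = 0.0251) for females minus males. The call was lost in 7 of 16 fits that left out a library: without replicate 1 (adjusted p = 0.0585), 2 (0.065) or 4 (0.0526) of the females on the normal diet, replicate 2 (0.0714) or 3 (0.0635) of the males on the high fat diet, or replicate 2 (0.0697) or 3 (0.0621) of the males on the normal diet. The changes within each sex were called too, -0.33 in females and 0.33 in males, but those calls were lost in 5 of 8 (adjusted p up to 0.129) and 6 of 8 (up to 0.0882) fits that left out a library, and on log2(TPM + 1) the female change was -0.07 (adjusted p = 0.591).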

How the results depend on the processing

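For the 10 members, 50 results were recomputed under the alternatives, giving 940 values: 875 kept their direction and side of the threshold, 18 were no longer called, 5 were newly called and 42 changed sign. None of the 10 called results changed sign. The causes of the changes below were not tested. The replicate numbers did not pair the samples (correlations of same-numbered deviations -0.159 to 0.18). A replicate block gave 1864, 1980, 101, 2685 and 3445 genes for the diet in females, the diet in males, the interaction, and sex on the normal and the high fat diet, against 1700, 1684, 100, 2322 and 3022, and changed no call of a member; with the block Hamp2 in females turned to 0.00063, Hamp in males to 0.010 and Hamp for sex on the high fat diet to -0.019. DESeq2 called 12 iron list genes for the diet in males (edgeR 7) and, for the interaction, 337 genes (100) and 2 list genes (1). Without the filter on low counts, 0 members (against 1) and 7 list genes (14) were called in females, 1 member (2) in males and 0 list genes (1) for the interaction; at an unadjusted p under 0.05 edgeR had 2 members in females and 8 list genes for the interaction. With the 2 groups alone there were 0 members and 8 list genes in females, 1 member in males, and 1958 genes (3022) and 6 list genes (17) for sex on the high fat diet. On log2(TPM + 1) and log2(TPM + 0.1), 2926 and 2763 genes were called in females (1700), and the median of all genes moved by 0.15 and 0.22 there and by 0.10 and 0.15 for sex on the high fat diet. On those scales the diet change in females turned to 0.16 and 0.16 for Hamp2, 0.14 and 0.14 for Tfr2, 0.0098 and 0.0070 for Id1, 0.13 and 0.17 for Smad7 and 0.18 and 0.18 for Ftl1, that of Hamp in males to 0.022 and 0.022, and sex on the high fat diet to 0.023 and 0.023 for Tfr2 and 0.094 and 0.14 for Smad7. With the alike male libraries 2 and 3 averaged, 58 genes and 0 list genes were called for the interaction, and Smad7 for sex on the high fat diet turned to 0.055. With libraries 1 and 4 alone in that group there were 2 list genes for the interaction, and sign changes to -1.47 for Hamp2, -0.36 for Id1 and -0.0015 for Smad7 in males, to 1.42 for Hamp2, -0.031 for Tfr2 and 0.17 for Id1 in the interaction, and to 0.28 for Smad7 for sex on the high fat diet. Summing Hamp and Hamp2 turned the male diet change to -0.026. Leaving out 1 library at a time gave 947 to 1647 genes in females, 1113 to 1912 in males, 51 to 176 for the interaction, 1325 to 2488 for sex on the normal diet and 1974 to 3019 on the high fat diet; list genes ran 7 to 15, 4 to 7, 0 to 2, 3 to 7 and 8 to 15, and members 0 to 1 in females and 1 to 2 in males. In those fits the diet change in females ran from -0.064 to 0.058 for Fth1, -0.16 to 0.011 for Ftl1, -0.23 to 0.16 for Hamp2 and -0.088 to 0.0088 for the log2 ratio of Ftl1 to Fth1. In males it ran from -0.16 to 0.021 for Fth1, -0.15 to 0.17 for Hamp and -0.12 to 0.19 for summed hepcidin. The interaction ran from -0.00090 to 0.18 for Fth1 and -0.39 to 0.013 for summed hepcidin, and sex on the high fat diet from -0.13 to 0.21 for Hamp, -0.25 to 0.080 for Smad7 and -0.046 to 0.051 for the ferritin ratio. For the list genes named by the rule, 207 of 721 values were not called and none changed sign. The SE of the log2 change between 2 groups was largest for Hamp2 (0.72 to 0.94), followed by Id1 (0.28 to 0.32), and smallest for Tfr2 (0.10).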
